A study of Mus musculus with 26 samples.

Results

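Macrophages of bone marrow origin (BM, as the labels call them) taken from mouse lung 7 days after lipopolysaccharide were compared with the same population at 1 day. The comparison used every library of both groups, BM day 7 (n = 3) and BM day 1 (n = 5), which together are 8 of the 26 RNA-seq libraries of the series. Lipopolysaccharide (LPS) is the cell-wall component of Gram-negative bacteria that triggers acute lung inflammation, and all 8 libraries come from LPS-treated lung, given as IT LPS in the labels. The other libraries are BM day 3 (n = 4) and resident alveolar macrophages (AM) without LPS (n = 3) and at days 1 (n = 4), 3 (n = 3) and 7 (n = 4). The AM libraries without LPS are described as young in the labels. The strain, sex and LPS dose of the mice, the age of the LPS-treated mice, the way BM and AM cells were separated, and whether replicates came from separate mice are not given in the sources used here, so p-values measure the spread between libraries, which may be technical.

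In an inflamed lung, monocytes leave the blood, cross into the airspaces and mature into macrophages there. Classical monocytes are known by Ly6C and CCR2, and patrolling monocytes by NR4A1, CX3CR1 and a high level of ACE. Resident macrophages of the alveolus take up surfactant lipid and dead cells and break them down in lysosomes. They carry SIGLECF on their surface, and the nuclear receptor PPARγ directs their maturation.

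Total counts ran from 10054930 to 24729188 per BM day 7 library and from 13014967 to 20007866 per BM day 1 library. Every BM day 1 library carries the sample prefix 6483 and every BM day 7 library the prefix 5341, so day and prefix cannot be told apart in this comparison. BM day 3 and AM days 1, 3 and 7 share the prefix 5341, and values of BM day 7 against BM day 3 are set beside the main ones as values within 1 prefix. The BM day 3 group was itself uneven: in its library 1 genes of endothelium and fibroblasts summed to 31223 CPM and neutrophil genes to 5484 CPM, against 99.3 to 459 CPM and 621 to 1466 CPM in the other 3, and 7449 genes had at least 10 counts there, against 10537 to 12112. Y-linked transcripts of 4 genes summed to 167 and 169 CPM in BM day 3 libraries 3 and 4 and to at most 0.165 CPM in libraries 1 and 2. The part of either in the values against day 3 was not tested. These contrasts use the same BM day 7 libraries and are not independent of each other. Within BM day 7, libraries 1 and 2 (library numbers 33 and 34) were much alike and the third (number 20) stood apart: the chi-square of their counts over its degrees of freedom was 14 between libraries 1 and 2, 88.8 between 1 and 3, and 92.1 between 2 and 3. All 3 pairs differed beyond counting noise. Library 3 of BM day 1 had the fewest genes with at least 10 counts, 9055, against 13366 to 15495 in the other 4.

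At day 7 the BM macrophages had more RNA of alveolar macrophage, lipid-handling and lysosomal genes than at day 1, and less of patrolling monocyte and interferon-stimulated genes. Of the tested members, 20 of 25 alveolar macrophage genes, 12 of 15 lipid-handling genes and 40 of 57 lysosomal genes rose and 0 fell, while 12 of 16 patrolling monocyte genes and 27 of 30 interferon-stimulated genes fell and 0 rose. The lists that rose share members, so their counts are not of separate genes. *Atp6v0d2* and *Ctsk* were counted as alveolar and as lysosomal, and *Cd63* as lipid-handling and as lysosomal. Of 17143 genes tested with edgeR's quasi-likelihood test, 2278 differed between BM day 7 and BM day 1 at an adjusted p under 0.05, which is 13.3% of those tested. They divided into 1523 higher at day 7 (8.88% of the genes tested) and 755 lower (4.4%). For day 7 over day 3, 529 genes (3.09%) were called higher and 154 (0.898%) lower. Those shares belong beside every list count against day 3 below. The median log2 fold change over all tested genes was 0.11, and it was −0.01 with DESeq2's size factors, under which 1282 genes were called higher and 955 lower. Without regard to the test, 5005 genes (29.2%) had every BM day 7 library on one side of every BM day 1 library. Of these, 3322 were higher (19.4%) and 1683 lower (9.82%). These shares, with the 8.88% and 4.4% called, belong beside every list count against day 1 below. The naming rule given with the processing picked up to 4 called members per list only where their days did not overlap. Non-overlap in those genes follows from that choice. In bulk RNA, fewer cells of a type and less RNA per cell cannot be told apart.

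The 4 markers named for these cells each separated the days. *Apoe*, the lipid-carrying apolipoprotein E of macrophages, had 8700.1, 8958 and 26338 CPM (read counts scaled to a common library total) in BM day 7 libraries 1, 2 and 3, against 625, 712, 647, 439 and 1045 CPM in the BM day 1 libraries, a log2 fold change of 4.40 ± 0.52, adjusted p = 3.24e-06 (± SE here and below). The third BM day 7 library was highest, and even the lowest day 7 library was far above every day 1 library. *Siglecf*, the sialic acid receptor of alveolar macrophages, had 177, 177 and 24.1 CPM at day 7, against 5.07, 12.8, 21.9, 10.1 and 6.93 CPM at day 1 (3.48 ± 0.55, adjusted p = 0.000106). Here the third day 7 library lay just above the highest day 1 library, while the others were far above it. In AM day 7, *Apoe* averaged 524 ± 141 CPM, below every BM day 7 library, and *Siglecf* 519 ± 54.1 CPM, above every one (SD, n = 4, as for all AM values). *Plac8*, a gene of monocytes, had 31.2, 34.8 and 2.99 CPM at day 7, against 619, 712, 381, 737 and 587 CPM at day 1 (−4.71 ± 0.67, adjusted p = 2.93e-05). *Ace*, angiotensin-converting enzyme, had 67.1, 72.3 and 17 CPM at day 7, against 799, 435, 1004, 744 and 1237 CPM at day 1 (−4.01 ± 0.57, adjusted p = 2.99e-05). For both monocyte genes the third day 7 library was the lowest of all 8 and no library of either group overlapped the other.

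At day 3, within the prefix of day 7, *Apoe* already had 6824, 10842, 20736 and 8029.9 CPM and its difference from day 7 did not pass the test (day 7 over day 3 0.34 ± 0.51, adjusted p = 0.835). *Siglecf* had 15.2, 19.4, 16.7 and 2.57 CPM at day 3, no library above the highest of day 1, and was higher at day 7 (day 7 over day 3 3.23 ± 0.59, adjusted p = 0.00251). *Plac8* had 105, 73.9, 34.4 and 208 CPM at day 3 (day 7 over day 3 −2.19 ± 0.60, adjusted p = 0.0397), and *Ace* had 73.4, 288, 124 and 258 CPM (day 7 over day 3 −1.83 ± 0.52, adjusted p = 0.0497). Both were below every day 1 library at day 3 and lower again at day 7, although 1 day 3 library reached down to the day 7 range of *Plac8*.

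**Figure D1:**
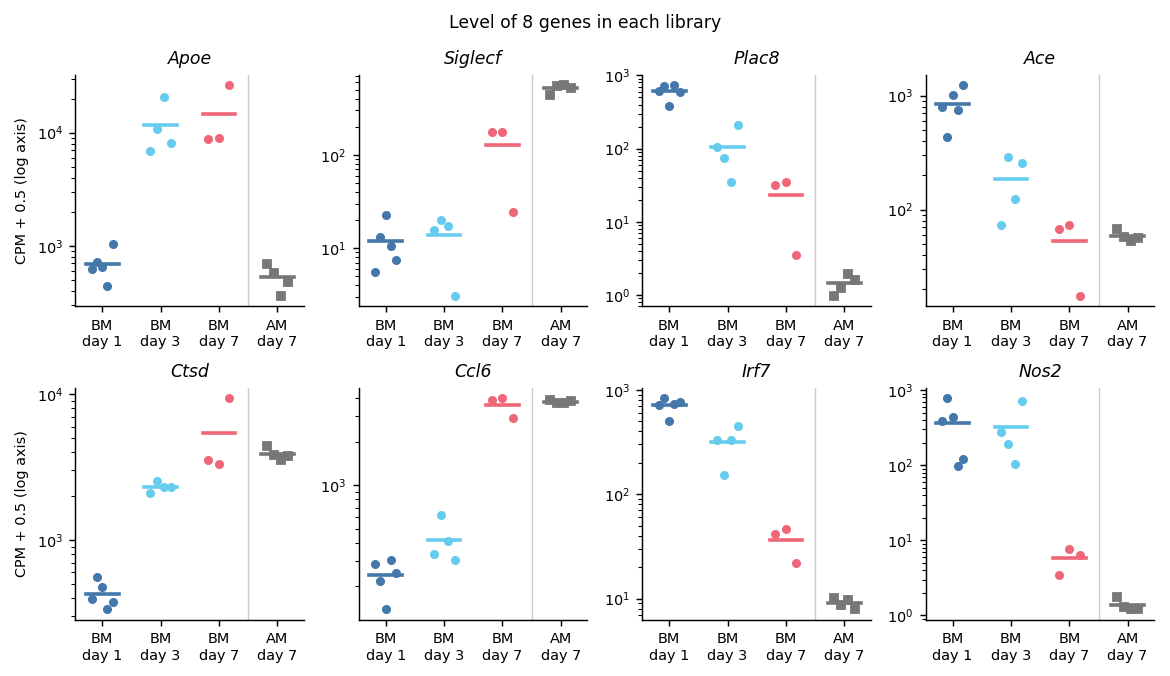
Level of 8 genes in each library, as CPM + 0.5 on a log axis; points are libraries, bars are group means, and AM day 7 is shown at the right as the resident level. *Apoe* is high from day 3 on, *Siglecf* and *Ccl6* have their highest BM mean at day 7, and *Irf7* and *Nos2* their lowest.

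Genes of patrolling monocytes fell. Of 16 tested, 12 fell and 0 rose (median log2 fold change −1.81, against 0.11 over all genes). Of the 16, 12 had no overlap between the days, all lower at day 7. Over all genes, 4.4% were called lower and 9.82% lay lower at day 7 without overlap. *Treml4*, a receptor of patrolling monocytes, had 25, 22.7 and 4.74 CPM at day 7, against 191, 90.1, 140.5, 215 and 182 CPM at day 1 (−3.22 ± 0.90, adjusted p = 0.0177). *Adgre4*, an adhesion G protein-coupled receptor, had 60.6, 47.3 and 11.8 CPM at day 7, against 376, 188, 352, 523 and 462 CPM at day 1 (−3.25 ± 0.53, adjusted p = 0.000101). *Spn*, the sialophorin CD43 of the monocyte surface, had 126, 119 and 37.9 CPM at day 7, against 384, 200.1, 652, 602 and 555 CPM at day 1 (−2.34 ± 0.51, adjusted p = 0.00229), and was not called in a fit of the BM groups alone (adjusted p = 0.0593). In each of these the third day 7 library was lowest. *Nr4a1*, the nuclear receptor required for patrolling monocytes in mice, had 973, 961 and 668 CPM at day 7, against 1532, 1283, 2253, 1746 and 2171 CPM at day 1 (−1.05 ± 0.22, adjusted p = 0.00121). The days did not overlap for *Nr4a1* either. *Cx3cr1*, the fractalkine receptor, was no lower at day 7, with 230.3, 250.2 and 92.2 CPM at day 7, against 123, 119.5, 107, 52.3 and 120.2 CPM at day 1, without passing the test (0.87 ± 0.70, adjusted p = 0.501). Leaving out day 7 library 1, 2 or 3 gave 8, 8 and 7 of the 16 as lower, and *Treml4* was lost in each of these fits (adjusted p = 0.0571, 0.0683 and 0.1). Against day 3, 2 of the 16 were lower at day 7 and 2 higher.

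Classical monocyte genes did not move together. Of 15 tested, 6 fell and 3 rose, with a median of −0.54. *Ly6c2*, which encodes part of the Ly6C antigen, had 27.9, 26.6 and 80.5 CPM at day 7, against 334, 411, 351, 122 and 105 CPM at day 1 (−2.56 ± 0.55, adjusted p = 0.00224); its reads may be shared with near-identical Ly6 genes. *Vcan*, the proteoglycan versican, had 7.16, 11 and 18.9 CPM at day 7, against 103, 100.1, 94.2, 89.8 and 74.6 CPM at day 1 (−2.90 ± 0.57, adjusted p = 0.00073). The days did not overlap for either gene. *Ccr2*, the receptor that brings classical monocytes out of the marrow, did not pass the test: it had 285, 310.3 and 94.6 CPM at day 7, against 341, 434, 292, 141 and 219 CPM at day 1 (−0.31 ± 0.55, adjusted p = 0.803). The members that rose included *Mgst1*, a microsomal glutathione transferase, with 209.9, 205 and 205 CPM at day 7, against 30, 45.6, 12.1, 14.2 and 15.9 CPM at day 1 (3.13 ± 0.27, adjusted p = 6.27e-09), and *Fn1*, fibronectin, with 3887, 3771 and 7709 CPM at day 7, against 1202, 1773, 2020.2, 654 and 742 CPM at day 1 (2.00 ± 0.33, adjusted p = 0.000127). In AM day 7 these genes had 289 ± 27.8 CPM (*Mgst1*) and 2763 ± 276 CPM (*Fn1*). *Ly6c2* was above all day 1 libraries at day 3, with 1046, 609, 807 and 1659 CPM (day 7 over day 3 −4.52 ± 0.62, adjusted p = 0.000169).

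Genes that mark the alveolar macrophage had the highest median change of the 16 lists plotted. Of 25 tested, 20 rose and 0 fell, with a median log2 fold change of 3.33, and 11 of the 25 had no overlap between the days. Over all genes, 8.88% were called higher and 19.4% lay higher at day 7 without overlap. Against BM day 3, 17 of the 25 were called higher, with a median of 2.31, beside 3.98% of all genes called in this comparison and 3.09% called higher. *Chil3*, the chitinase-like protein YM1, had 10238, 11011 and 1729 CPM at day 7, against 453, 487, 734, 425 and 505 CPM at day 1 (3.88 ± 0.38, adjusted p = 1.87e-07). *Lpl*, lipoprotein lipase, had 2263, 2369 and 815 CPM at day 7, against 214, 260.1, 166, 284 and 258 CPM at day 1 (2.94 ± 0.28, adjusted p = 4.42e-08). *Atp6v0d2*, a macrophage form of a proton pump subunit, had 768, 830.5 and 453 CPM at day 7, against 10.9, 18.5, 13.8, 7.35 and 21.4 CPM at day 1 (5.57 ± 0.35, adjusted p = 5.82e-11). These 3 were high in all day 7 libraries, and lowest among them in the third. *Ctsk*, the collagen-cutting cathepsin K, followed the same order with 855, 867 and 182 CPM at day 7, against 9.29, 23, 20.8, 44.2 and 11.1 CPM at day 1 (4.87 ± 0.60, adjusted p = 6.61e-06). *Fabp1*, a fatty acid-binding protein, had 27.7, 26.2 and 1.65 CPM at day 7, against 0, 0.915, 0, 0 and 0 CPM at day 1 (6.47 ± 1.41, adjusted p = 0.00289), with the third library just above day 1, and was not called in the BM groups alone (adjusted p = 0.153).

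For another set of alveolar genes the third day 7 library was not distinct from day 1. *Car4*, a membrane carbonic anhydrase, had 485, 461 and 17.6 CPM at day 7, against 31.2, 30.1, 13.9, 31.7 and 18.3 CPM at day 1 (3.68 ± 0.64, adjusted p = 0.000323). *Marco*, a scavenger receptor for particles and bacteria, had 412, 443 and 12.2 CPM at day 7, against 33.3, 24.7, 44.8, 83.5 and 24.7 CPM at day 1 (2.78 ± 0.65, adjusted p = 0.00544). *Pparg*, which encodes the factor that directs alveolar macrophage maturation, had 159, 154 and 56.5 CPM at day 7, against 40.4, 25.4, 90.7, 30.6 and 56.5 CPM at day 1 (1.34 ± 0.32, adjusted p = 0.00447). In all 3 the groups overlapped through that library. As a share of the mean AM day 7 level of each gene, the 25 alveolar genes stood at a median of 44.9%, 46.7% and 5.52% in BM day 7 libraries 1, 2 and 3, at 3.97% to 8.53% in the BM day 3 libraries and at 2.02% to 4.3% in the BM day 1 libraries. Library 3 was within the range of the day 3 libraries and libraries 1 and 2 far above it. The genes of tissue macrophages described below, which were lower in AM day 7, stood at medians of 1592%, 1645% and 1615% of the AM day 7 level in the same 3 libraries. A share of resident cells among the BM cells was not tested. Leaving out library 3 left the count at 20, with a median of 3.91, while leaving out library 1 or 2 gave 16 each. A fit of the BM groups alone called 11, and there *Marco* and *Pparg* were not called.

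**Figure D2:**
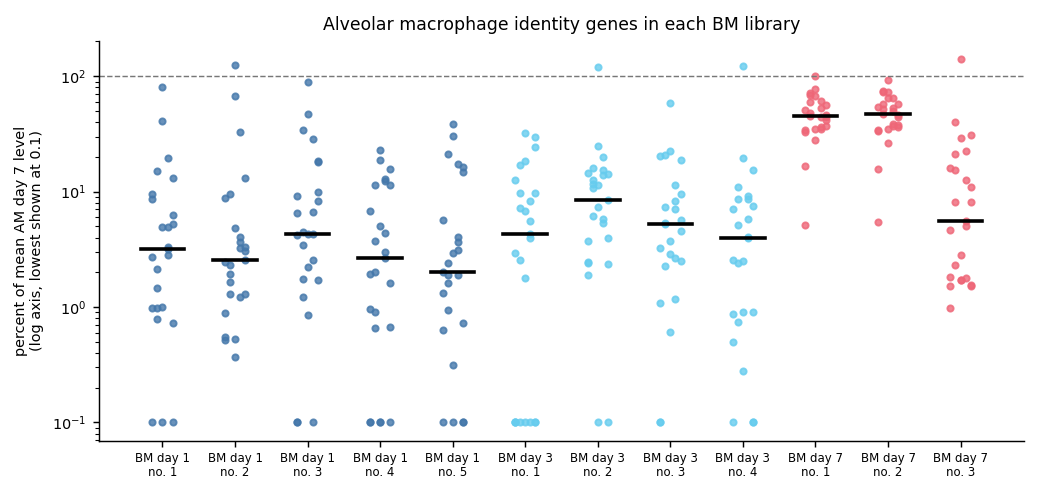
Each point is 1 of 25 alveolar macrophage genes in 1 BM library, as a percent of that gene's mean AM day 7 level on a log axis (values under 0.1 shown at 0.1); bars are medians and the dashed line marks the resident level. BM day 7 libraries 1 and 2 sit at medians of 44.9% and 46.7%, and library 3 at 5.52%.

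Genes of macrophages that take up lipid and cell debris rose, and several were highest in the third day 7 library. Of 15 tested, 12 rose and 0 fell (median 2.18). *Gpnmb*, a glycoprotein of lysosome-rich macrophages, had 723, 712 and 1350.1 CPM at day 7, against 83.1, 95.8, 38.9, 20.3 and 38.2 CPM at day 1 (4.07 ± 0.38, adjusted p = 6.51e-08). *Trem2*, a lipid-sensing receptor, had 187, 189 and 404 CPM at day 7, against 0, 13.6, 60.6, 8.8 and 6.8 CPM at day 1 (3.86 ± 0.80, adjusted p = 0.00196). *Spp1*, the secreted protein osteopontin, had 422, 457 and 1835 CPM at day 7, against 73.1, 101, 146, 21.7 and 67.4 CPM at day 1 (3.47 ± 0.71, adjusted p = 0.00171). For these 3 genes library 3 had close to or more than the sum of the other day 7 libraries. *Cd9*, a tetraspanin, showed the other order with 1637, 1724 and 1223 CPM at day 7, against 131, 194, 249, 161 and 133 CPM at day 1 (3.14 ± 0.20, adjusted p = 3.71e-11). *Fabp5*, a fatty acid-binding protein, and *Lipa*, the lysosomal acid lipase, rose by 1.77 and 1.73 on the log2 scale (adjusted p = 0.00427 and 4.81e-07). *Plin2*, which coats lipid droplets, did not pass the test (0.84 ± 0.31, adjusted p = 0.0797). *Trem2* and *Fabp5* were not called in a fit of the BM groups alone (adjusted p = 0.056 and 0.0504), nor *Fabp5* without the third day 7 library (adjusted p = 0.0568). Against day 3, 3 of the 15 were higher at day 7 and 0 lower.

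Genes of tissue macrophages outside the alveolus rose in part. Of 22 tested, 9 rose and 0 fell (median 1.18). *C1qa*, a chain of complement C1q, had 759.8, 807 and 625 CPM at day 7, against 293, 352, 195, 249.6 and 240.3 CPM at day 1 (1.46 ± 0.42, adjusted p = 0.0207), and AM day 7 had 23.6 ± 12.4 CPM. *Ms4a7*, a macrophage membrane protein, had 173, 192 and 98.5 CPM at day 7, against 13.8, 28.7, 0, 5.64 and 21.5 CPM at day 1 (3.47 ± 1.01, adjusted p = 0.0257), and AM day 7 had 6.91 ± 2.09 CPM. *Selenop*, the selenium carrier, had 692, 696 and 394 CPM at day 7, against 120.3, 89.5, 96.2, 97.4 and 176 CPM at day 1 (2.36 ± 0.37, adjusted p = 7.34e-05). Day 7 and day 1 did not overlap for these genes, which the naming rule required of *Ms4a7* and *Selenop*. *Lyve1*, a hyaluronan receptor of interstitial macrophages, was near 0 throughout, at 0.824, 1.22 and 0.824 CPM at day 7 and 3.89, 2.32, 0, 0.894 and 1.47 CPM at day 1. Over the fits that left out 1 library, the adjusted p of *C1qa* ran from 0.0234 to 0.0784 and that of *Ms4a7* from 0.0147 to 0.0838, past the threshold without day 7 library 1 or 2 for both, without day 1 library 3 for *C1qa*, and without day 1 library 1 or 4 for *Ms4a7*. Against day 3, 1 of the 22 was higher at day 7.

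The digestive machinery of the lysosome rose broadly. Of 32 hydrolases and their partners, 19 rose and 0 fell (median 1.03), and of 25 membrane proteins and proton pump subunits, 21 rose and 0 fell (median 0.93). *Ctsd*, the aspartic protease cathepsin D, had 3538, 3332 and 9362 CPM at day 7, against 395, 552, 471, 335 and 375 CPM at day 1 (3.67 ± 0.23, adjusted p = 2.4e-11). *Ctsl*, cathepsin L, had 509, 527 and 994 CPM at day 7, against 110.1, 121, 55.4, 118 and 100.3 CPM at day 1 (2.74 ± 0.26, adjusted p = 2.28e-08). *Lyz2*, lysozyme, had 23474, 23717 and 36547 CPM at day 7, against 4212, 4902, 3846, 5075 and 3567 CPM at day 1 (2.69 ± 0.24, adjusted p = 1.28e-08). Each was highest in the third day 7 library. No day 1 library reached the lowest day 7 value, as the naming rule required. *Cd63*, a membrane tetraspanin of late endosomes, had 526, 542 and 801 CPM at day 7, against 61.9, 92.7, 65.6, 32.7 and 24.7 CPM at day 1 (3.49 ± 0.30, adjusted p = 7.98e-09). *Cd68* and *Lamp1*, glycoproteins of the lysosomal membrane, rose by 2.02 and 1.48 on the log2 scale (adjusted p = 3.53e-06 and 1.76e-07). Within the prefix of day 7, fewer calls were made: 4 of the 32 hydrolases and 1 of the 25 membrane and pump genes were called higher at day 7 than at day 3. At an unadjusted p under 0.05 there were 11 hydrolases higher and 4 lower, and 10 membrane and pump genes higher and 1 lower. *Ctsd* was one of them, at 2087, 2557, 2301 and 2324 CPM on day 3 (day 7 over day 3 1.22 ± 0.23, adjusted p = 0.00265).

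Promoters of lysosomal genes were read for the motif TCACGTG on either strand (its complement is CACGTGA), the core bound by the factors TFEB and TFE3 in published work. RefSeq promoter sequence (GRCm38.p6, 250 bases before to 50 after each gene start) was at hand for 44 of the 57 lysosomal genes tested, and 12 of the 44 held the motif (27.3%), against 4.29% of all 27025 genes with a promoter and 6.66% of those tested. Among the 31 that rose and had a promoter, 7 held it (22.6%). Of all genes called higher at day 7 that had a promoter, these included, 85 of 1091 held it (7.79%). Of those called lower, 32 of 554 did (5.78%). Windows of 2 genes that rose are shown with every match in capitals, since the promoter of *Lamp1* holds 4 matches and that of *Ctsd* 2 that overlap each other.
Ctsd promoter, chr7:142387859-142387985, strand minus: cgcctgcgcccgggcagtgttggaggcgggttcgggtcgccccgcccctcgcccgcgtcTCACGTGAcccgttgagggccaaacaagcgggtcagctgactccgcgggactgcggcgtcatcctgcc
Lamp1 promoter, chr8:13159085-13159210, strand plus: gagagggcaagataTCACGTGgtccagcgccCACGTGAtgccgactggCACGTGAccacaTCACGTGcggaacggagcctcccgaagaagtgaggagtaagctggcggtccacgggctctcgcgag
A match describes the sequence only, and binding was not measured.

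**Figure D3:**
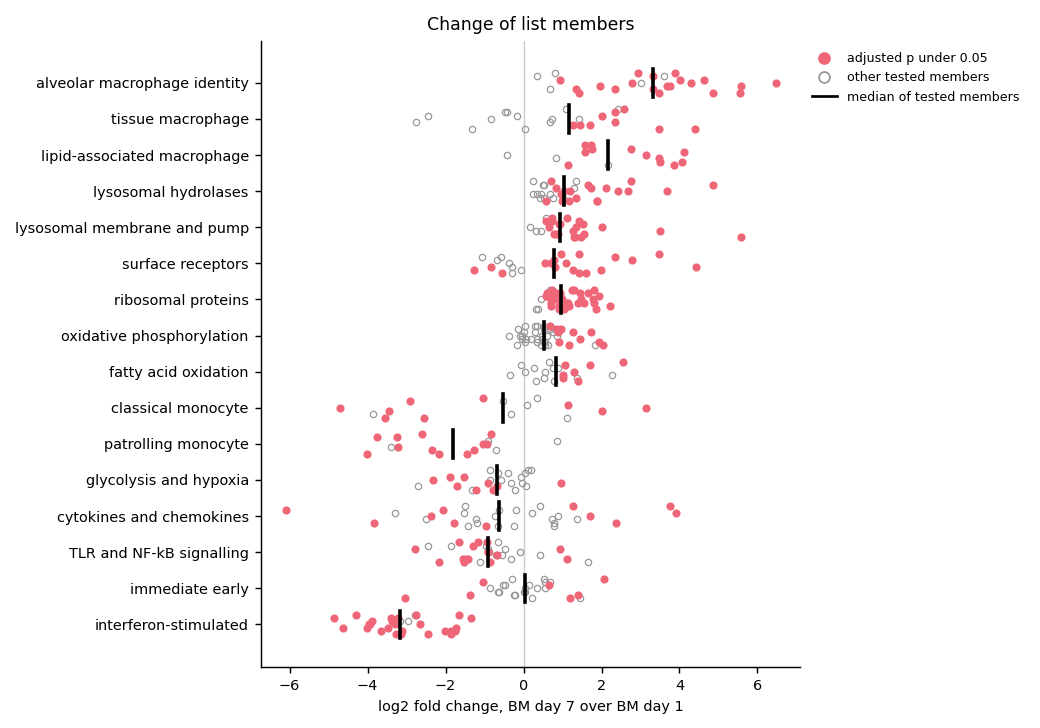
Log2 fold change of BM day 7 over BM day 1 for each tested member of 16 gene lists; filled points have an adjusted p under 0.05, open points do not, and bars are list medians. Medians run from 3.33 for alveolar macrophage identity to −3.17 for interferon-stimulated genes.

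Most ribosomal protein genes rose, by modest amounts. Of 40 tested, 36 rose and 0 fell (median 0.96). *Rpl4*, a protein of the large ribosomal subunit, had 1567, 1578 and 1295 CPM at day 7, against 696, 727, 509.7, 773 and 614 CPM at day 1 (1.16 ± 0.14, adjusted p = 1.36e-06). No library of *Rpl4* overlapped the other day. Subunits of oxidative phosphorylation rose in 11 of 43 genes and fell in 0 (median 0.53), among them *Atp5c1*, a subunit of ATP synthase, with 176, 161 and 151 CPM at day 7, against 55, 74.2, 6.99, 44.3 and 31 CPM at day 1 (1.94 ± 0.35, adjusted p = 0.000308), and *Cox6c*, a subunit of cytochrome oxidase (1.44 ± 0.23, adjusted p = 8e-05). Fatty acid oxidation genes rose in 7 of 20 and fell in 0 (median 0.83), such as *Acadm*, the medium-chain acyl-CoA dehydrogenase (1.72 ± 0.40, adjusted p = 0.00378), and *Echs1*, the enoyl-CoA hydratase (1.3 ± 0.21, adjusted p = 5.61e-05). Peroxisomal genes rose in 8 of 30 and fell in 0 (median 0.57), such as *Pex11a*, which drives peroxisome division, with 16, 16.7 and 7.31 CPM at day 7, against 0, 1.88, 0, 1.24 and 0 CPM at day 1 (4.38 ± 0.88, adjusted p = 0.000914). In the BM groups alone *Pex11a* was not called (adjusted p = 0.128), and 5 of the 30 were, as in the compared groups alone.

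Among genes with a mean of 5 CPM or more on the higher day, the change also varied with exonic length. The median log2 fold change of BM day 7 over BM day 1 was 0.51 in the quintile of genes with the shortest exonic length and −0.21 in the quintile with the longest, while for BM day 7 over BM day 3 it lay between 0.07 and 0.22 in every quintile. With an offset for exonic length, an alternative added after seeing the data, 24 of the 40 ribosomal protein genes were called higher (median 0.70). So were 5 of the 43 oxidative phosphorylation genes (median 0.05), 7 of the 20 fatty acid oxidation genes (median 0.92) and 7 of the 30 peroxisomal genes (median 0.50). Between BM day 7 and BM day 3, 0 of the 40 ribosomal protein genes, 0 of the 43 oxidative phosphorylation genes and 0 of the 20 fatty acid oxidation genes were called in either direction by edgeR. At an unadjusted p under 0.05 the same comparison gave 4 ribosomal protein genes higher, 2 oxidative phosphorylation genes lower and 0 fatty acid oxidation genes, and DESeq2 called 0, 2 (lower) and 0. Some counts depended on single libraries. Oxidative phosphorylation gave 6 higher without day 7 library 1 or 2 and 7 without day 1 library 1, fatty acid oxidation gave 4 without day 7 library 1 or 2 or day 1 library 1 or 5, and without both day 1 library 3 and day 3 library 1 the counts were 17 and 13. In the BM groups alone they were 5 and 2, and in the compared groups alone 6 and 3.

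Interferon-stimulated genes fell almost without exception. These genes are switched on by interferons and encode antiviral proteins and their regulators. Of 30 tested, 27 fell and 0 rose, with a median log2 fold change of −3.17. Of the 30, 27 had no overlap between the days, all lower at day 7. Over all genes, 4.4% were called lower and 9.82% lay lower without overlap. Without day 7 library 1, 2 or 3, 19, 20 and 20 of the 30 were called lower, and 20 in the BM groups alone. *Irf7*, the transcription factor that amplifies type I interferon, had 41, 46.2 and 21.4 CPM at day 7, against 719, 830.1, 508, 729 and 759.9 CPM at day 1 (−4.29 ± 0.37, adjusted p = 7.2e-09). *Oas3*, an oligoadenylate synthetase that senses double-stranded RNA, had 15, 11.5 and 7.31 CPM at day 7, against 281, 397, 232, 224 and 259 CPM at day 1 (−4.62 ± 0.43, adjusted p = 1.76e-08). *Rsad2*, the antiviral enzyme viperin, had 8.76, 10.6 and 7.31 CPM at day 7, against 339.6, 571, 222, 56.4 and 105 CPM at day 1 (−4.86 ± 0.70, adjusted p = 2.69e-05). All 3 day 7 libraries were low in each gene, including the third. *Isg15*, a ubiquitin-like modifier, had 11.8, 12.5 and 7 CPM at day 7, against 143, 319, 154, 113 and 77.6 CPM at day 1 (−3.94 ± 0.44, adjusted p = 3.89e-07). Within the prefix of day 7, 15 of the 30 were called lower at day 7 than at day 3 and 0 higher (median −2.25), beside 0.898% of all genes called lower. *Irf7* had 329, 151, 334 and 448 CPM at day 3 (day 7 over day 3 −3.12 ± 0.36, adjusted p = 7.53e-06).

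Promoters of the same genes were read for GAAANNGAA on either strand (its complement is TTCNNTTTC), a short form of the element bound by interferon regulatory factors. RefSeq promoters were at hand for 22 of the 30 genes, and 14 of these held it (63.6%), against 9.76% of all 27025 genes with a promoter. Of the genes called lower at day 7 that had a promoter, 75 of 554 held it (13.5%), against 101 of 1091 of those called higher (9.26%). The 554 include 21 members of this list, 13 of them with the motif. Among all tested genes with a promoter the share was 8.99%. Windows from 3 genes that fell are shown with the matches in capitals, and in *Isg15* and *Oas3* the matches overlap in an unbroken run.
Rsad2 promoter, chr12:26456503-26456631, strand minus: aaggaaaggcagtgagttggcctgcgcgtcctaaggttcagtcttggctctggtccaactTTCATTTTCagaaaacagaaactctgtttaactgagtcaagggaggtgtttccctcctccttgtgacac
Isg15 promoter, chr4:156200816-156200944, strand minus: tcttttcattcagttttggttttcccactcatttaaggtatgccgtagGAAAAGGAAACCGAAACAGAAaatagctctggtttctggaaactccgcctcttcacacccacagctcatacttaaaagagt
Oas3 promoter, chr5:120777660-120777788, strand minus: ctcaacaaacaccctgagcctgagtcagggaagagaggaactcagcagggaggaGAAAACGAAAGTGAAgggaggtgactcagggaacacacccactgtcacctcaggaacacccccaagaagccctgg
As above, these are letters in a window and no measure of binding.

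Cytokine and chemokine genes divided. Of 30 tested, 6 fell and 5 rose (median −0.64). *Nos2*, inducible nitric oxide synthase, had 2.94, 7.22 and 5.87 CPM at day 7, against 392, 778, 438, 97.7 and 121 CPM at day 1 (−6.09 ± 1.07, adjusted p = 0.000371). *Il1b*, interleukin-1β, had 1895, 2009.8 and 1396 CPM at day 7, against 6096, 7914, 6696, 5152 and 4314 CPM at day 1 (−1.77 ± 0.25, adjusted p = 1.59e-05). *Lcn2*, the iron-trapping lipocalin 2, had 16.4, 13.4 and 19.7 CPM at day 7, against 156, 234, 434, 254 and 107 CPM at day 1 (−3.85 ± 0.73, adjusted p = 0.000888). The day 7 libraries lay below all day 1 libraries in these genes, where the naming rule required non-overlap of *Nos2* and *Lcn2*. *Tnf* did not pass the test, with 198, 213 and 159.9 CPM at day 7, against 265, 389, 575, 156 and 180.3 CPM at day 1 (−0.72 ± 0.37, adjusted p = 0.222). Among the genes that rose, *Ccl6*, a CC chemokine of myeloid cells in mice, had 3909, 3993 and 2907 CPM at day 7, against 286, 218, 139, 304 and 249 CPM at day 1 (3.91 ± 0.26, adjusted p = 9.6e-11). *Cxcl1*, a neutrophil attractant, had 159, 167 and 211 CPM at day 7, against 36.3, 50, 44.2, 28.2 and 13.9 CPM at day 1 (2.38 ± 0.58, adjusted p = 0.00719). *Il18*, interleukin-18, had 108, 120.4 and 13.4 CPM at day 7, against 7.77, 7.91, 0, 6.39 and 7.6 CPM at day 1 (3.76 ± 0.90, adjusted p = 0.00644). *Ccl6* was high in all 3 day 7 libraries, while *Il18* was low in the third. In a fit of the BM groups alone 1 of the 5 rises was called, and *Cxcl1* and *Il18* were not (adjusted p = 0.0906 and 0.101). Leaving out any 1 day 7 library gave 3 of the 30 as lower, and leaving out day 1 library 2 gave 4.

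*Nos2* and *Il1b* took different courses through day 3. *Nos2* still had 278, 191, 102 and 711 CPM at day 3 and was lower at day 7 (day 7 over day 3 −5.91 ± 1.06, adjusted p = 0.00251). *Il1b* had 1188, 1258, 809.6 and 622 CPM at day 3, below every day 7 library (day 7 over day 3 0.87 ± 0.25, adjusted p = 0.0436). *Ccl6* had 335, 625, 411 and 302 CPM at day 3, and was higher at day 7 (day 7 over day 3 3.11 ± 0.28, adjusted p = 3.75e-07).

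Genes of Toll-like receptor and NF-κB signalling were lower in part: 14 of 30 fell and 2 rose (median −0.91). Without any 1 of the day 7 libraries 11 of the 30 were called lower, and in the BM groups alone 12. *Traf1*, an adaptor of TNF receptors, had 77.2, 70.1 and 69.5 CPM at day 7, against 500.5, 589, 481, 422 and 499.8 CPM at day 1 (−2.79 ± 0.37, adjusted p = 5.82e-06). *Nfkbie*, an inhibitor of NF-κB, had 135, 138 and 87.4 CPM at day 7, against 536, 666, 605, 412 and 469.5 CPM at day 1 (−2.16 ± 0.39, adjusted p = 0.00028). *Socs3*, a feedback inhibitor of cytokine receptors, had 504, 473 and 465 CPM at day 7, against 1572, 1816, 1466, 1650.2 and 1127 CPM at day 1 (−1.67 ± 0.25, adjusted p = 3.65e-05). None of these overlapped between days, which the naming rule required of them. Within the prefix of day 7, 4 of the 30 were higher at day 7 than at day 3 and 0 lower by edgeR, with 3 lower at an unadjusted p under 0.05 and 2 lower with DESeq2. *Nfkbiz*, an atypical IκB protein induced by Toll-like receptors, had 607, 631 and 493 CPM at day 7, 1495, 1650.1, 2129.7, 1234 and 1223 CPM at day 1 (−1.42 ± 0.28, adjusted p = 0.00075) and 120.3, 229, 278 and 126 CPM at day 3 (day 7 over day 3 1.62 ± 0.28, adjusted p = 0.00093), so day 3 was the lowest of the 3 days.

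Immediate early genes, which respond to stimuli within minutes and also to cell handling, gave different counts against day 1 and day 3. Against day 1, 4 of 26 were higher and 3 lower (median 0.04), beside 8.88% and 4.4% of all genes (median 0.11). Against day 3, 16 of 26 were higher and 0 lower (median 1.14), beside 3.09% and 0.898% of all genes (median 0.21). *Fos* had 2104, 2118 and 1934 CPM at day 7, against 887, 1164, 1283, 497 and 645 CPM at day 1 (1.20 ± 0.27, adjusted p = 0.00344), and 404, 1149.8, 1128 and 889 CPM at day 3. *Egr1* had 727, 747 and 745 CPM at day 7, against 157, 209.9, 307, 93.8 and 124 CPM at day 1 (2.05 ± 0.38, adjusted p = 0.000581), and 37.4, 197, 171 and 114 CPM at day 3. *Dusp2*, a phosphatase of MAP kinases, went the other way with 84.4, 78.7 and 26.1 CPM at day 7, against 453, 408, 442, 731 and 559.9 CPM at day 1 (−3.04 ± 0.55, adjusted p = 0.000434). Handling times are not given in the sources used here, and their part in these values was not tested.

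Genes of glycolysis and hypoxia were lower in part: 8 of 24 fell and 1 rose (median −0.67), and 8 of 24 were also lower at day 7 than at day 3. *Slc16a3*, the lactate exporter MCT4, had 77, 81.4 and 152 CPM at day 7, against 501, 463, 600.4, 424 and 591 CPM at day 1 (−2.32 ± 0.27, adjusted p = 5.65e-07). *Hk3*, hexokinase 3 of myeloid cells, had 71.1, 65.4 and 134 CPM at day 7, against 333, 541, 331, 203 and 266 CPM at day 1 (−1.89 ± 0.32, adjusted p = 0.000149). *Pkm*, pyruvate kinase, fell by less, with 835, 784 and 1185 CPM at day 7, against 1578, 1887, 1239, 1643 and 1154 CPM at day 1 (−0.68 ± 0.20, adjusted p = 0.0256), and the days overlapped. The third day 7 library was the highest of its group in all 3 genes. Without library 1 or library 2 of day 7, 4 of the 24 were called lower and *Pkm* was not (adjusted p = 0.147 and 0.177), while DESeq2 called 13 lower.

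Genes of cholesterol handling rose in part, and those of cholesterol synthesis gave few calls. Of 13 genes of cholesterol handling and efflux, 5 rose and 1 fell, beside 8.88% and 4.4% of all genes. The largest of these rises was that of *Apoe*, given above. *Abcg1*, a sterol exporter, had 978, 995 and 661 CPM at day 7, against 281, 282, 386, 339 and 353 CPM at day 1 (1.42 ± 0.21, adjusted p = 2.69e-05), and *Nceh1*, a cholesterol ester hydrolase, had 303, 297 and 335 CPM at day 7, against 64.9, 84.6, 91, 43 and 61.9 CPM at day 1 (2.17 ± 0.28, adjusted p = 3.48e-06). The gene that fell was *Nr1h3*, which encodes the sterol-sensing receptor LXRα, with 70.8, 67 and 48.5 CPM at day 7, against 222, 146, 92.2, 543 and 294 CPM at day 1 (−2.06 ± 0.37, adjusted p = 0.000238). Of 22 genes of cholesterol synthesis and uptake, 1 rose and 2 fell. *Hmgcs1*, an early enzyme of the pathway, rose (1.3 ± 0.24, adjusted p = 0.000383). The number of synthesis genes that rose was 4 without day 1 library 2, 3 without day 7 library 3 and 2 without day 1 library 3 or 5, and 3 handling genes fell without day 1 library 3.

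Among 25 surface receptors, 15 rose and 3 fell (median 0.79), beside 8.88% and 4.4% of all genes. Without day 7 library 1, 2 or 3 the count of rises was 11, 11 and 15 and of falls 1, 1 and 0. In the BM groups alone 10 rose and 1 fell, and in the compared groups alone 11 and 2. *Cd200r1*, an inhibitory receptor of macrophages, had 132, 133 and 184 CPM at day 7, against 7.05, 9.48, 11.9, 4.74 and 1.87 CPM at day 1 (4.41 ± 0.38, adjusted p = 7.2e-09). *Mrc1*, the mannose receptor, had 707, 743 and 223 CPM at day 7, against 132, 121, 127, 93.8 and 77.8 CPM at day 1 (2.34 ± 0.38, adjusted p = 0.000141). The activating Fcγ receptor genes went opposite ways: *Fcgr3* had 676, 691 and 789 CPM at day 7, against 308, 333, 268, 179 and 243 CPM at day 1 (1.43 ± 0.17, adjusted p = 7.43e-07), and *Fcgr4* had 93.1, 91.8 and 30.5 CPM at day 7, against 182, 217, 147, 164 and 164 CPM at day 1 (−1.28 ± 0.32, adjusted p = 0.00644). *Fcgr4* was not called without the third day 7 library, in which it was lowest (adjusted p = 0.0722). *Csf1r*, the receptor for the macrophage growth factor CSF1, had 1576, 1581 and 1309.9 CPM at day 7, against 2035, 2087, 2159, 2387 and 2226 CPM at day 1 (−0.55 ± 0.18, adjusted p = 0.0398). Its adjusted p ran from 0.0346 to 0.227 over the fits without 1 library, past the threshold without any 1 of the day 7 libraries or day 1 library 4. Of the integrins by which lung macrophages are commonly told apart, *Itgam* (CD11b) had 317, 311 and 591 CPM at day 7, against 208, 152, 111, 298 and 147 CPM at day 1 (1.15 ± 0.37, adjusted p = 0.0387), a call lost with DESeq2 and without day 7 library 3 or day 1 library 1, 2, 3 or 5 (adjusted p up to 0.255), and *Itgax* (CD11c) did not pass the test (0.34 ± 0.27, adjusted p = 0.493).

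Transcription factors of macrophages were divided, with 5 of 22 higher and 6 lower (median −0.08), or 3 lower without day 7 library 1 or 2. *Cebpa*, a factor of myeloid differentiation, had 543, 534 and 678 CPM at day 7, against 135, 166, 147, 94.8 and 151 CPM at day 1 (2.08 ± 0.26, adjusted p = 1.83e-06). *Bhlhe41*, which is expressed in alveolar macrophages of mice, had 108, 98.7 and 152 CPM at day 7, against 26.1, 8.13, 0.0714, 3.44 and 4.66 CPM at day 1 (3.81 ± 0.69, adjusted p = 0.00044). In both genes the third day 7 library was the highest, unlike its place for *Pparg*.

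Antioxidant and iron genes were also divided, with 7 of 25 higher and 5 lower, or 3 lower without day 7 library 1 or 2. *Prdx1*, a peroxiredoxin, had 639, 628 and 680.0 CPM at day 7, against 203, 230.0, 191, 176 and 146 CPM at day 1 (1.78 ± 0.15, adjusted p = 7.2e-09). *Mt1*, a metal-binding metallothionein, had 259, 236 and 98.8 CPM at day 7, against 22.3, 21.3, 29.6, 25 and 18 CPM at day 1 (3.09 ± 0.29, adjusted p = 1.76e-08). *Fth1*, the ferritin heavy chain, rose as well (1.15 ± 0.21, adjusted p = 0.000389).

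Genes for clearing dead cells and for tissue repair had no common direction. Of 23 efferocytosis genes, 4 rose and 3 fell (2 and 1 without day 7 library 1 or 2), and of 25 repair and matrix genes, 6 rose and 2 fell. *Thbs1*, thrombospondin 1, had 205, 207 and 535 CPM at day 7, against 3958, 4045, 4737, 3655 and 3891 CPM at day 1 (−3.69 ± 1.02, adjusted p = 0.0191). *Tgm2*, transglutaminase 2, had 396, 368 and 261 CPM at day 7, against 1564, 1612, 1802, 1293 and 1427 CPM at day 1 (−2.17 ± 0.30, adjusted p = 7.49e-06). *Mertk*, a receptor for dying cells, had 303, 308 and 235 CPM at day 7, against 71.6, 111, 33.7, 134 and 121 CPM at day 1 (1.58 ± 0.27, adjusted p = 0.000142). None of these overlapped between the days, which the naming rule required of *Thbs1* and *Mertk*. At day 3 *Thbs1* had 1058, 132, 115 and 93.1 CPM. Its call was lost without day 7 library 1 or 2 (adjusted p = 0.112 and 0.111). *Mfge8*, a bridge to phosphatidylserine on dying cells, was highest in the third day 7 library, with 45.1, 37.9 and 248 CPM at day 7, against 11.9, 5.28, 29.6, 21.8 and 9.26 CPM at day 1 (2.83 ± 0.59, adjusted p = 0.00137), and was not called without that library (adjusted p = 0.147). *Igf1*, insulin-like growth factor 1, had 44.8, 46.2 and 62.2 CPM at day 7, against 7.9, 5.55, 5.07, 1.86 and 8.66 CPM at day 1 (3.14 ± 0.67, adjusted p = 0.00165). The metalloproteinases *Mmp12* and *Mmp19* rose by 2.75 and 2.02 on the log2 scale (adjusted p = 0.000152 and 2.34e-05).

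Other lists gave few calls. Of 30 cell cycle genes, 1 fell and 0 rose: *Mcm2*, a helicase subunit of replication, with 18.6, 18.4 and 22.3 CPM at day 7, against 47.8, 25.7, 67.2, 71.5 and 43.1 CPM at day 1 (−1.37 ± 0.39, adjusted p = 0.017), a call lost without any 1 of the day 7 libraries (adjusted p = 0.0971, 0.103 and 0.0596). *Mki67*, the proliferation antigen, had 95.9, 108 and 105 CPM at day 7, against 162, 126, 127, 127 and 164 CPM at day 1 without passing the test (−0.45 ± 0.28, adjusted p = 0.332). Of 14 genes of MHC class II and costimulation, 2 rose and 1 fell.

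Some genes were at 0 counts on 1 of both days. There were 24 called genes at 0 counts in all 5 BM day 1 libraries and at a mean of 5 CPM or more in BM day 7. Set against the floor that 3 counts over the day 1 group allow, 0.0388 CPM, their day 7 means were at least 134- to 421-fold higher, for counting error only. *Ctsf*, the lysosomal cathepsin F, had 18.2, 15.9 and 14.9 CPM at day 7 (at least 421-fold higher), and AM day 7 had 40.7 ± 2.93 CPM. *Coro6*, a coronin, had 19.1, 17.9 and 1.65 CPM at day 7 (at least 331-fold higher) and 67.4 ± 6.07 CPM in AM day 7. *Htr2c*, a serotonin receptor, had 18.2, 17.5 and 0.721 CPM at day 7 (at least 313-fold higher). *Coro6* and *Htr2c* were low in the third day 7 library, to which the bounds of their means do not apply, and *Ctsf* was even over all 3. Conversely, 12 called genes were at 0 in all 3 BM day 7 libraries with 5 CPM or more at day 1, among them *Rn7s2*, a copy of the signal recognition particle RNA, with 14.2, 13.2, 40, 31 and 27.3 CPM at day 1. *Spon1*, an extracellular matrix protein, had counts on both days and fell, with 5.92, 1.1 and 0.412 CPM at day 7, against 136, 195, 86.2, 115 and 121 CPM at day 1 (−5.70 ± 1.02, adjusted p = 0.00027).

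Several RNAs that lack a poly(A) tail or stay in the nucleus were at their highest in BM day 1 among all groups. *Rn7sk*, the 7SK RNA that restrains transcription elongation, had 19, 5.59 and 0.927 CPM at day 7, against 680.0, 678, 495, 641 and 1087 CPM at day 1, and no library of the other groups was above 25.2 CPM. *Scarna2*, a Cajal body RNA, had 4.58, 1.47 and 0.206 CPM at day 7, against 226, 260.1, 170.4, 306 and 313 CPM at day 1. *Malat1*, an abundant nuclear RNA, had 2204, 1485 and 1118 CPM at day 7, against 8538, 8379, 7176, 6889 and 10816 CPM at day 1 (−2.38 ± 0.36, adjusted p = 4.44e-05). The summed replication-dependent histone genes, whose mRNA ends in a stem-loop, had 189.4 to 235.5 CPM at day 7 and 681.5 to 1970 CPM at day 1. The libraries were made from poly(A)-selected RNA per the labels' protocols. These RNAs moved with the prefix as well as with the day, and their part in the differences described above was not tested. ENSMUSG00000118642, a gene the annotation used gives no symbol, had 73.6 to 399 CPM at day 7 and 24937 to 57104 CPM at day 1. With this gene and the histone genes taken out before scaling, 1553 genes were called higher and 729 lower.

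**Figure D4:**
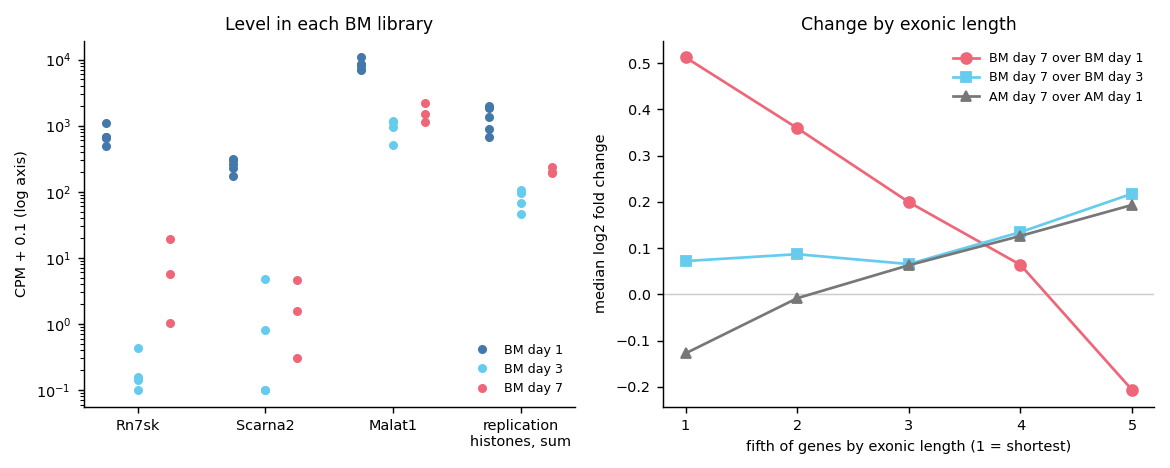
Left, level of 3 RNAs and of the summed replication histone genes in each BM library, as CPM + 0.1 on a log axis. Right, median log2 fold change in each quintile of genes by exonic length for 3 comparisons: BM day 7 over BM day 1 falls from 0.51 to −0.21 with length, and BM day 7 over BM day 3 stays between 0.07 and 0.22.

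General macrophage genes described above, *Cd68*, *Csf1r* and *Lyz2*, were present in all 8 libraries. Of 13 neutrophil genes tested, 3 fell and 0 rose (median −3.25), with 7 falling in DESeq2 and 1, 1 and 5 without day 7 library 1, 2 or 3, and their sum was 170.0 to 515 CPM at day 7 and 678 to 1829 CPM at day 1. *S100a8*, a calcium-binding protein of neutrophils and monocytes, had 31.2, 30.6 and 86.6 CPM at day 7, against 182, 257, 211, 245 and 102 CPM at day 1 (−2.01 ± 0.66, adjusted p = 0.0461, and 0.0372 to 0.211 over the fits without 1 library), and its partner *S100a9* had 3.3, 4.08 and 108 CPM at day 7, against 318, 356, 595, 394 and 142 CPM at day 1 (−3.25 ± 1.33, adjusted p = 0.116). Genes of endothelium and fibroblasts summed to 21.7 to 97.1 CPM at day 7 and 219.9 to 443 CPM at day 1, of which *Pecam1*, an adhesion molecule that monocytes also carry, had 15.6, 13.8 and 4.33 CPM at day 7, against 165, 66, 83.1, 373 and 245 CPM at day 1 (−4.04 ± 1.07, adjusted p = 0.0123), a call lost without any 1 of the day 7 libraries (adjusted p = 0.0537, 0.0634 and 0.0805). Genes of B cells summed to 136 to 291 CPM at day 7 and 20.7 to 86.4 CPM at day 1, of which *Cd22*, a B cell receptor inhibitor, had 84.7, 95.3 and 93.1 CPM at day 7, against 0.659, 8.45, 10.1, 1.92 and 13.1 CPM at day 1 (3.73 ± 0.89, adjusted p = 0.00646; adjusted p = 0.106 in the BM groups alone), with 142 ± 2.51 CPM in AM day 7. Genes of T and NK cells summed to 9.58 to 30.9 CPM at day 7 and 8.59 to 22.2 CPM at day 1, of dendritic cells to 39 to 128 and 151 to 320.2 CPM, and of lung epithelium to 135 to 169.5 and 144 to 219 CPM. *Sftpc*, surfactant protein C of alveolar type 2 cells, had 29.7, 29.7 and 17.3 CPM at day 7, against 0, 2.69, 0, 0 and 2.4 CPM at day 1 (4.64 ± 1.43, adjusted p = 0.0305, and 0.0286 to 0.0735 over the fits without 1 library). Over all genes tested 8.88% were called higher and 4.4% lower. Of the tested lung epithelium genes 1 of 12 was called (*Sftpc*, higher), of the B cell genes 2 of 9 (higher). For endothelium and fibroblasts it was 1 of 12 (lower) and for dendritic cells 1 of 11 (higher), where DESeq2 called 1 higher and 2 lower. For T and NK cells it was 0 of 13 by edgeR, with 1 higher at an unadjusted p under 0.05. Of 9 genes of eosinophils, mast cells and basophils 5 were at 0 in all 8 libraries. The part of such cells in the results was not tested.

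The change of BM was set against that of AM over the same days, which uses other libraries. AM day 7 (n = 4) against AM day 1 (n = 4) gave 845 called genes (4.93%), 382 higher (2.23%) and 463 lower (2.7%). A test of the difference between both changes called 1292 genes (7.54%), 790 with the more positive change in BM (4.61%) and 502 with the more negative (2.93%). Of the genes called higher in BM, 126 were also called higher in AM, which is 8.27% of the BM list and 33% of the AM list, and 49 were called lower in AM. Of those called lower in BM, 188 were also lower in AM, 24.9% of the BM list and 40.6% of the AM list, and 41 were higher in AM. All AM day 1 libraries had Y-linked transcripts, summing to 191 to 217 CPM, and AM day 7 libraries had at most 4.09 CPM, so sex and day cannot be told apart in the AM arm. In BM the same genes summed to 0.103 to 3.81 CPM at day 7 and 7.75 to 38.4 CPM at day 1.

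Interferon-stimulated genes fell in both populations: 26 of 30 fell in AM, and 0 of 30 differed between the changes of BM and AM at an adjusted p under 0.05 by edgeR. At an unadjusted p under 0.05 there were 2, and DESeq2 called 1. *Irf7*, for example, had 8.61 ± 0.994 CPM in AM day 7 and 252 ± 53.3 CPM in AM day 1 (SD, n = 4 each), and its changes in BM and AM differed by 0.58 ± 0.42, adjusted p = 0.488. Genes of the lysosome, of ribosomal proteins and of patrolling monocytes gave calls in the difference between both changes. The change of BM crosses the sample prefixes and that of AM stays within 1, so population and prefix cannot be told apart in this difference. The median change of the quintiles of exonic length ran from 0.51 (shortest) to −0.21 (longest) in BM and from −0.13 to 0.19 in AM, and with the offset for exonic length 999 genes differed. The change in BM was the more positive in 16 of 32 hydrolase genes (1 was more negative), 19 of 25 lysosomal membrane and pump genes and 39 of 40 ribosomal protein genes, and the more negative in 9 of 16 patrolling monocyte genes. *Itgam* showed one of the clearest differences: AM day 7 had 16.1 ± 6.16 CPM and AM day 1 308 ± 91.6 CPM, and the changes differed by 5.40 ± 0.54, adjusted p = 6.04e-07. *Gpnmb* had 138 ± 31.4 CPM in AM day 7 and 515 ± 117 CPM in AM day 1, a fall beside the rise in BM (5.97 ± 0.54, adjusted p = 2.38e-07). *Nr4a1* rose in AM, with 863 ± 95.3 CPM at day 7 and 296 ± 27.5 CPM at day 1, and fell in BM (−2.60 ± 0.30, adjusted p = 1.98e-06). *Siglecf* rose in both, with 519 ± 54.1 CPM in AM day 7 and 95.4 ± 35.8 CPM in AM day 1, and the difference of the changes did not pass the test (1.03 ± 0.75, adjusted p = 0.489).

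**Figure D5:**
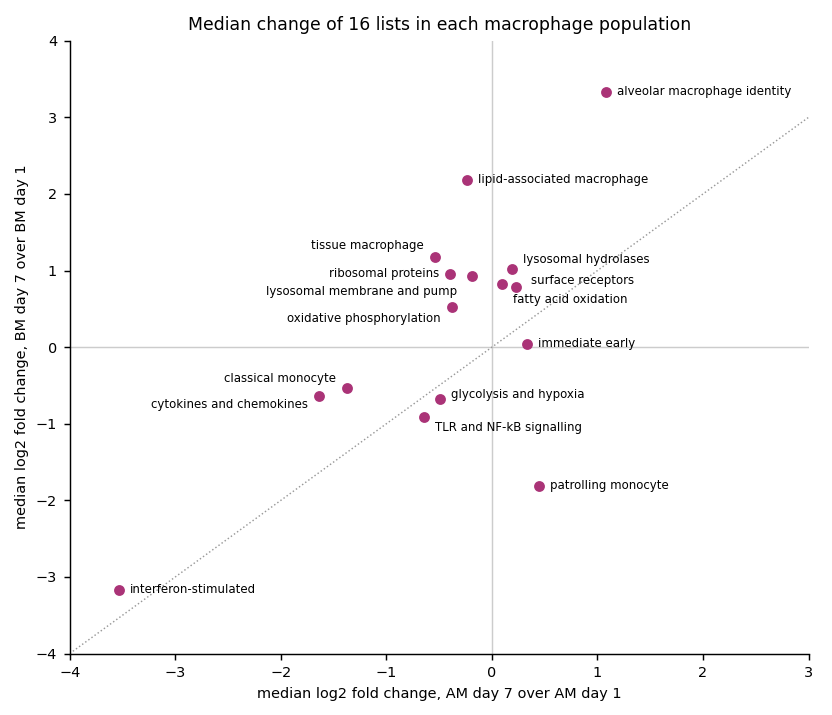
Median log2 fold change of 16 gene lists for AM day 7 over AM day 1 (horizontal) and BM day 7 over BM day 1 (vertical); each point is a list and the dotted line marks equal change. Interferon-stimulated genes lie near the line at −3.54 in AM and −3.17 in BM, and patrolling monocyte genes have opposite signs, 0.45 in AM and −1.81 in BM.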

How the data were processed

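Poly(A)-selected, stranded RNA libraries of mouse lung macrophages were sequenced, per the labels' protocols. Reads were trimmed with Trimmomatic 0.39, aligned to GRCm38 with HISAT2 2.1.0 and counted with featureCounts 2.0.0, per the submitters' processing notes, and the deposited values are raw counts per gene. The annotation release and strand setting used for counting are not given in the sources used here, so reads of overlapping or antisense genes and of near-identical copies cannot be assigned with certainty. Gene symbols came from GENCODE M21, which matched 55227 of 55487 gene identifiers.

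Groups and days were taken from the sample labels. Counts were scaled by TMM and tested with edgeR 4.0.16 (R 4.3.3) by its quasi-likelihood test with robust estimation, all 26 libraries in 7 groups sharing 1 estimate of the spread, after edgeR's expression filter (minimum count 10). Genes were called at a Benjamini-Hochberg adjusted p under 0.05. The contrasts were BM day 7 against BM day 1, the same for AM, the difference of both changes, and BM day 7 against BM day 3. CPM values are counts scaled to a common total after TMM. Standard errors were derived from the fold change and its F statistic. The test was tried on simulated counts. Replicates all differed beyond counting noise, by a chi-square test of their counts. Alternatives were DESeq2 1.42.0, other scaling, filters, covariates and left-out libraries. Intervals, floors and bounds cover counting error only.

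The gene lists and members were chosen with earlier results of these data known. Some genes were in more than 1 list, such as *Apoe*, *Thbs1* and *Timp2*. Genes were named by a rule: in each list up to 4 called members of largest change whose days did not overlap (with a mean of 5 CPM or more on the higher day) and the most abundant member, the 10 largest rises and falls and the 5 largest differences from AM in each direction, and a few genes always given. Outside that rule, *Lpl*, *Car4*, *Marco*, *Spp1*, *Cd9*, *Fabp5*, *Lipa*, *Plin2*, *C1qa*, *Lyve1*, *Vcan*, *Spn*, *Nr4a1*, *Cx3cr1*, *Isg15*, *Cxcl1*, *Tgm2*, *Mmp19*, *Fcgr3*, *Fcgr4* and *Malat1* were chosen after their values were seen. A few genes are not reported here.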

Additional observations from a re-analysis of the deposited data

Results flagged for a closer look

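In the 5 BM day 1 libraries, 1 library stood apart for 6 of the 112 genes named, by Dixon's test of the gap to its nearest neighbour at the 95% level, which chance meets in about 1 of 20 groups. Library 3 was the library in 4 of them: it was highest for *Chil3*, with 734 CPM, *Trem2*, with 60.6 CPM, and *Il1f9*, with 178 CPM, and lowest for *Il18*, with 0 CPM. Library 2 was the only day 1 library with *Fabp1* above 0, with 0.915 CPM, and library 4 was lowest for *Cx3cr1*, with 52.3 CPM.

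The change from day 1 to day 7 differed between BM and AM for 53 of the named genes, by edgeR's test of the difference with adjusted p-values from 4.42e-08 to 0.0428. Many of these genes were named for large changes in the same libraries or after their values were seen. The count therefore follows in part from that choice, and over all genes tested 7.54% were called. Values are the log2 change in BM minus that in AM. Among genes of lung and lipid-handling macrophages the difference was positive for *Apoe* (4.18), *Chil3* (3.08), *Lpl* (2.94), *Atp6v0d2* (5.48), *Ctsk* (4.52), *Car4* (5.81), *Marco* (4.15), *Gpnmb* (5.97), *Cd9* (2.01), *Fabp5* (1.95), *C1qa* (2.18) and *Bhlhe41* (4.46). It was positive for the lysosomal genes *Ctsd* (2.88), *Ctsl* (2.73), *Lyz2* (1.98), *Cd63* (4.06), *Lamp1* (1.45) and *Cd68* (2.48). It was also positive for the ribosomal, mitochondrial and peroxisomal genes *Rpl4* (1.52), *Atp5c1* (2.11), *Cox6c* (1.90), *Echs1* (2.12) and *Pex11a* (4.06). Among monocyte genes it was negative for *Ace* (−5.63), *Treml4* (−5.34), *Adgre4* (−2.91), *Spn* (−3.59) and *Nr4a1* (−2.60), and positive for *Ly6c2* (3.47) and *Mgst1* (3.22). Genes of signalling, cytokines and matrix with a positive difference were *Ccl6* (3.42), *Cxcl1* (2.73), *Socs3* (1.5), *Egr1* (2.64) and *Mmp12* (3.27). Surface receptors and metal-handling or antioxidant genes with a positive difference were *Cd200r1* (3.52), *Clec4d* (3.21), *Fcgr3* (1.37), *Itgam* (5.40), *Mt1* (2.87), *Prdx1* (1.64) and *Fth1* (2.90). The sterol enzyme gene *Hmgcs1* (1.45) was positive too. The difference was negative for *Slc16a3* (−2.27), *Nr1h3* (−2.05), *Tgm2* (−1.87) and *Fcgr4* (−2.03), and for the RNAs *Rn7sk* (−6.02) and *Malat1* (−2.22). For *Ctsf* (9.61), *Coro6* (9.34), *Htr2c* (8.89) and *Tchh* (8.35) the size depends on the prior count of the fit, since BM day 1 was at 0.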

How the results depend on the processing

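Day and sample prefix cannot be told apart in this comparison. BM day 7 against day 1 gave 2278 called genes, 1084 in a fit of the BM groups alone, 3569 without both BM day 1 library 3 and BM day 3 library 1, and 1398 to 2257 when 1 library was left out, lowest without day 7 library 2 (1398) and library 1 (1459). List members called numbered 291, and this count stayed within 1.5 times under every alternative run. The share of called genes that were higher was 66.9%, against 57.3% with DESeq2's size factors, 53.5% with DESeq2's Wald test (1607 higher, 1394 lower), 54.0% in the BM groups alone (585 and 499), 45.3% in the compared groups alone (977 and 1178), 56.0% with no filter (928 and 729) and 56.5% with a filter of 5 CPM (1171 and 902). The difference between the changes of BM and AM gave 1292 calls, 2302 with DESeq2's Wald test, 2611 without both sparse libraries, and 836 to 1513 when 1 library was left out. AM day 7 against day 1 gave 845, 1723 with DESeq2, 376 with a covariate for the Y-linked level and 1911 without both sparse libraries. BM day 7 against day 3 gave 683, 1496 with DESeq2 and 143 in the BM groups alone. The causes were not tested.

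With the replicate number as a block, BM day 7 against day 1 gave 1810 calls (1208 higher, 602 lower), but deviations of same-numbered libraries correlated at 0.0119, 0.0223 and −0.00521, so the numbers do not pair the libraries. Of 104 named genes called, 77 were called under every alternative, 27 were lost under at least 1, most often in the BM groups alone (18), and 0 changed direction. Many of these genes were named for large called changes, so this share does not stand for all calls. Of all 2278 calls, 1063 were kept in the BM groups alone and 1393 without day 7 library 2. The most kept under a single alternative was 2251, with histone genes left out before scaling. The offset for exonic length was chosen after seeing the data.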

Other observations

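Some genes with large changes belong to none of the groups described so far or were named there only by their list. *Il1f9*, an interleukin-36 cytokine, had 0.618, 0.326 and 6.28 CPM in BM day 7 libraries, against 54.9, 73, 178, 52.4 and 39.2 CPM in BM day 1 libraries (−5.08 ± 1.37, adjusted p = 0.0127), with the third library of each day the highest of its group. *Ms4a4c*, a membrane protein of classical monocytes, had 23.7, 23.5 and 3.19 CPM at day 7, against 213, 348, 151, 148 and 136 CPM at day 1 (−3.56 ± 0.73, adjusted p = 0.00129), and *Cd300e*, a receptor of patrolling monocytes, had 16, 15.8 and 1.13 CPM at day 7, against 137, 51.1, 253, 157 and 146 CPM at day 1 (−3.75 ± 1.16, adjusted p = 0.0343). The third day 7 library was lowest for both. Without day 7 library 1, 2 or 3 the adjusted p of *Cd300e* was 0.101, 0.104 and 0.14, and that of *Il1f9* 0.0804, 0.0767 and 0.00632.

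*Gbp2*, an interferon-induced GTPase, had 70.4, 75.3 and 95 CPM at day 7, against 755, 1263, 1146, 178 and 232 CPM at day 1 (−3.16 ± 0.57, adjusted p = 0.000498), and day 1 libraries 4 and 5 were well below the other 3. *Rsad2* and *Nos2* had the same 2 libraries lowest at day 1, as the values above show. Among the genes that rose, *Timp2*, an inhibitor of metalloproteinases, had 194, 205 and 446 CPM at day 7, against 72, 42.6, 7.56, 59.5 and 52.8 CPM at day 1 (2.59 ± 0.53, adjusted p = 0.00144), and *Tfec*, a relative of TFEB, had 134, 155 and 108 CPM at day 7, against 18.2, 28.6, 17.1, 24.7 and 38.7 CPM at day 1 (2.38 ± 0.62, adjusted p = 0.0115). *Clec4d*, a C-type lectin receptor, had 320.4, 315 and 539.9 CPM at day 7, against 125, 179, 95, 57.1 and 39 CPM at day 1 (1.98 ± 0.35, adjusted p = 0.000282). *Timp2* and *Clec4d* were highest in the third day 7 library and *Tfec* lowest there. None of the 3 overlapped between the days, as the naming rule required. *Tfec* was not called without day 7 library 2 (adjusted p = 0.0508) or in the BM groups alone (adjusted p = 0.125).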
